A study of Mus musculus with 9 samples.

Results

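The Egr and Ier immediate early genes were 8 listed genes, Egr1, Egr2, Egr3, Egr4, Ier2, Ier3, Ier5 and Ier5l, of 21900 protein-coding genes in the RefSeq annotation of GRCm38 (mm10). All 8 were found by symbol, and every m6A peak of the wild-type immunoprecipitations within 500 bp of their gene bodies was taken. m6A-RIP-seq enriches RNA that carries N6-methyladenosine with an antibody and compares it with input RNA. The series holds 9 libraries of mouse embryonic stem cells (mESCs): m6A immunoprecipitations of Mettl3KO, Zc3h13KO and WT cells, with 1 input library per genotype. Lists of peaks from the 2 WT immunoprecipitations were used, and the remaining 7 libraries were not analysed here. All 9 share 1 background in the labels, Rosa26:CRE with Bir ligase, and the cells grew in serum with LIF. Whether the replicates came from separate cultures is not stated.

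Immediate early genes are transcribed within minutes of a growth signal, without new protein synthesis, largely through serum response factor and its ternary complex partners downstream of the MAP kinase ERK. Their mRNAs are short-lived. EGR proteins are zinc finger transcription factors that bind GC-rich DNA, and the Ier genes encode small proteins that are not related in sequence to the EGR family. m6A is laid down on nascent mRNA by Mettl3 and Mettl14 and is known to lie mostly in long internal exons and near stop codons, where reader proteins such as Ythdf2 can promote mRNA decay.

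The lists differed in length, with 22531 peaks in replicate 1 and 5040 in replicate 2. They hold no read counts, so depth is unknown. The peaks of the first list are named for another sample name than wild type, and the lists were matched to replicates by the sample labels. Of 10 embryonic stem cell markers, 7 had a peak in replicate 1, among them Nanog, Sox2 and Sall4, and Tbx3 and Nr0b1 had one in both replicates. Sall4 was enriched at most 5.72-fold over input in replicate 1. Nanog and Sox2 were enriched only 1.67-fold and 1.27-fold there, and the lowest value of that list was 1.22. The peaks of the replicates overlapped at Tbx3 but not at Nr0b1. Tbx3 was enriched 2.38-fold in replicate 2, where the lowest value was 1.94. Pou5f1, Lin28a and Dppa4 had no peak. Among all protein-coding genes 41.3% had a peak in replicate 1 and 16.1% in both, so the 2 of 10 markers in both lay near the background. Peaks measure enrichment over input and not expression, so a missing peak cannot be told apart from a transcript that was too scarce to be called.

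In replicate 1, 6 of the 8 genes had a peak, namely Egr1, Egr2, Egr4, Ier2, Ier5 and Ier5l, against 41.3% of all protein-coding genes. In replicate 2, 2 of the 8 had one, Ier5 and Ier5l, against 16.9% of all protein-coding genes. These same 2 genes were in both lists (25.0% of the 8, against 16.1% of all protein-coding genes), and at both of them the peaks of the replicates overlapped, which 15.6% of all protein-coding genes showed. Only Ier5 was left in both lists at a −log10 q of at least 5 or a fold enrichment of at least 4. When 50% of both peaks had to overlap, 0 genes kept an overlapping pair. The share of all protein-coding genes at these stricter settings was not counted. Egr3, which acts in muscle spindle development, and Ier3, a regulator of apoptosis also known as IEX-1, had no peak in either replicate. The genes are short, from 1199 bp (Ier3) to 7720 bp (Egr2), with a median of 2869.5 bp against 17146 bp for all protein-coding genes. Among the 4847 protein-coding genes in this range of lengths, 33.3% had a peak in replicate 1, 13.8% had one in both replicates and 13.6% had an overlapping pair. At the share of all protein-coding genes, 3.30 of 8 genes would have a peak in replicate 1 and 1.29 of 8 in both, so the count of 2 in both lay near the background.

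**Figure D1:**
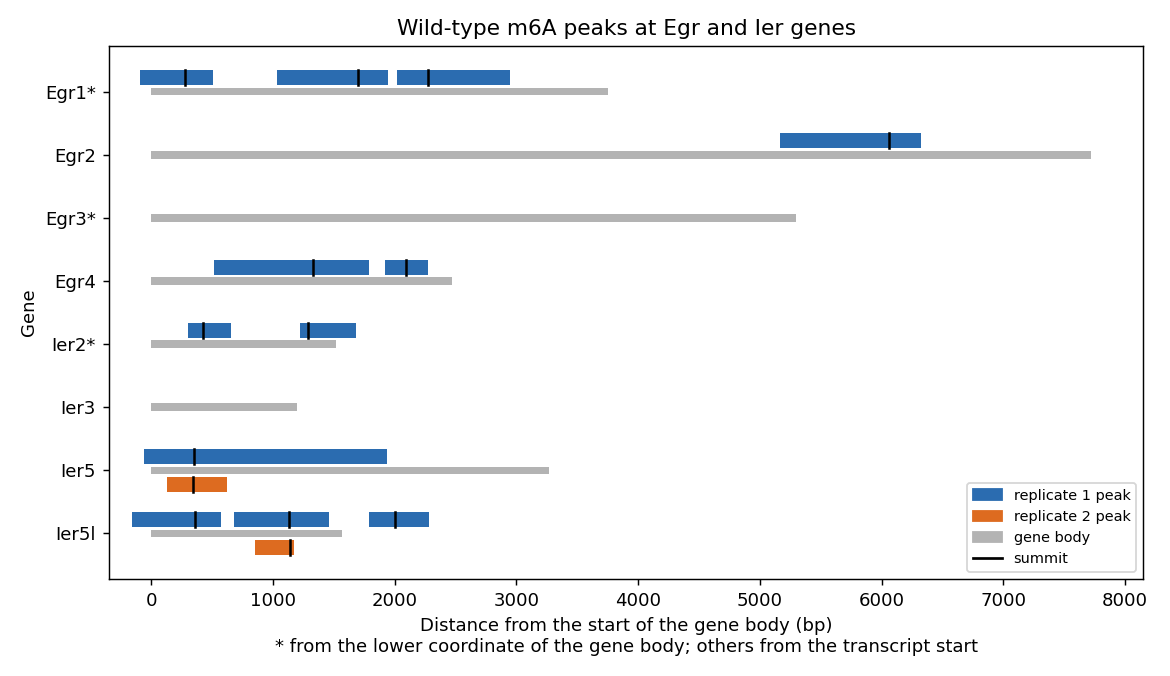
Peaks along the 8 genes, in bp from the start of the gene body (from the lower coordinate for Egr1, Egr3 and Ier2, marked with an asterisk; from the transcript start for the others). Grey bars are gene bodies, blue bars replicate 1 peaks, orange bars replicate 2 peaks and black lines summits. Orange bars stand at Ier5 and Ier5l only, and Egr3 and Ier3 have a grey bar but no peak bar.

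Ier5, whose protein binds the phosphatase PP2A and the heat shock factor Hsf1, carried the strongest call of the 8 genes. It lies on the minus strand of chromosome 1 from 155096367 to 155099636. Its replicate 1 peak ran from 155097704 to 155099692 and was enriched 6.89-fold over input at a −log10 q of 179.1, where q is the p-value of MACS2 adjusted for multiple peaks. That −log10 q ranked 438 of 22531 in the list. The peak was 1989 bp wide, against a median of 445 bp for the list, and ranked 434 by width. Its replicate 2 peak ran from 155099011 to 155099503, inside the first, and was enriched 5.04-fold (−log10 q 8.12). Both fell on the same stretch of the transcript, since the summits of replicates 1 and 2 lay 350 and 347 bp downstream of the annotated transcript start, 3 bp apart. The broad replicate 1 peak thus covered 59.1% of the gene body from the start onwards, and the last 1337 bp of the gene body lay outside it.

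Ier5l, the paralogue of Ier5, lies on the minus strand of chromosome 2 from 30472631 to 30474199, and had 3 peaks in replicate 1 and 1 in replicate 2. The middle peak of replicate 1, from 30472736 to 30473520, was enriched 3.96-fold at a −log10 q of 135.6, which ranked 1187 in the list. The replicate 2 peak, from 30473030 to 30473350, lay inside it and was enriched 2.41-fold (−log10 q 3.40). Their summits were 1133 and 1139 bp downstream of the transcript start in replicates 1 and 2, 6 bp apart. The replicate 2 peak was among the weakest of its list, ranking 4984 of 5040 by fold enrichment and 4640 by −log10 q. The other peaks of replicate 1 had no counterpart in replicate 2. One, from 30473623 to 30474354, crossed the transcript start, with its summit 358 bp downstream of it and an enrichment of 3.62-fold (−log10 q 89.3). It also reached into Gm31291, a lncRNA gene that begins at 30474308, 109 bp from Ier5l, so it may belong to either gene. Counting this peak, Gm31291 had 3 peaks within 500 bp in replicate 1 and 0 in replicate 2. The last Ier5l peak, from 30471921 to 30472411, lay 220 bp beyond the annotated transcript end and was enriched 5.88-fold (−log10 q 37.9). No other gene was annotated within 500 bp of it. Together the peaks of replicate 1 covered 86.8% of the gene body of Ier5l, and that of replicate 2 covered 20.5%.

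At Ier5 and Ier5l the replicate 1 peaks reached past the annotated transcript start into the promoter. The 250 bases before the start are shown to place that edge, 5′ to 3′ on the transcribed strand, from RefSeq GRCm38.p6, at chr1:155099637-155099886 and chr2:30474200-30474449. Capitals mark the bases inside the replicate 1 peak, 56 at Ier5 and 155 at Ier5l. At Ier5l the bases from 30474308 upwards, some of them capitals, also lie in the annotated gene body of Gm31291.
Ier5: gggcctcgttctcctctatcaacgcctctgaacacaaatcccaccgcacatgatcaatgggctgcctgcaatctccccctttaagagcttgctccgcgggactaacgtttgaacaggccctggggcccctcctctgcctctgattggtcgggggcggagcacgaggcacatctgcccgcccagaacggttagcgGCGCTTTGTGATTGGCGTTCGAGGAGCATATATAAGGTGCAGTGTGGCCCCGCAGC
Ier5l: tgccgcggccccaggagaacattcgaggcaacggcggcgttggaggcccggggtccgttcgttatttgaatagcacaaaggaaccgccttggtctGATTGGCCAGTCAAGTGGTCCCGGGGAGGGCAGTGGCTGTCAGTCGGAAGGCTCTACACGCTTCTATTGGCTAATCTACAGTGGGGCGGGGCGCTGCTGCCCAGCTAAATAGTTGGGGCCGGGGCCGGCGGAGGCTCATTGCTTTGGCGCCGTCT
Each run ends at the base before the transcript start, so the peaks cover its capital end and go on into the transcript. At Ier5 the covered part holds a TATAA (or its reverse complement) that begins 26 bases before the start. Such a match was present in 24.9% of 32851 promoter windows of 250 bases before to 50 bases after a start. CCAAT, read on either strand, occurred 2 times in the window of each of these genes, and at least 1 time in 37.4% of all windows; this motif was chosen after the sequences were seen. GGAC or AGAC followed by A, C or T, which are among the sequences in which m6A is laid down, was not found on the transcribed strand in the first 50 transcribed bases of Ier5 or Ier5l, and 28.3% of all windows held at least 1 there. The summits lay further downstream, outside these windows.

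Of the other members, Egr2, Egr4 and Ier3 also had promoter windows, and no replicate 1 peak reached these. Egr1, Egr3 and Ier2 had no window or strand. A peak of Egr1 and one of Ier2 also crossed an end of the gene body. Whether that end is the transcript start was not determined. At Egr2, which has 5 annotated windows, 4 windows held a CArG box, the binding sequence of serum response factor, against 1.63% of all windows; since windows overlap, these were 2 distinct sites. The windows of Egr4, Ier3, Ier5 and Ier5l held none. CGTCA, a part of the cyclic AMP response element, was present on either strand 2 times at Egr4, 2 times in each of 3 windows of Egr2 and 0 times at Ier3, Ier5 and Ier5l, and in 20.8% of all windows. CCAAT was also present 2 times at Ier3 and 1 time in each of 3 windows of Egr2, and 0 times at Egr4. TATAA, on either strand, was also present 1 time each at Egr4 and Ier3 and 2 times in a window of Egr2. It was absent at Ier5l.

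Egr4, an EGR factor with a role in male fertility in mice, had the highest fold enrichment of the 8 genes. It lies on the minus strand of chromosome 6 from 85511121 to 85513589. Its larger peak, from 85511805 to 85513071 in replicate 1, was enriched 15.7-fold, above 95.2% of the list, at a −log10 q of 62.3. The smaller one, from 85511318 to 85511666, was enriched 10.6-fold (−log10 q 26.8). The peaks were 138 bp apart, with summits 1329 and 2094 bp downstream of the transcript start, and covered 65.5% of the gene body. Replicate 2 listed no peak at Egr4. The fold enrichment of Egr4 in replicate 1 was above those of Ier5 and Ier5l. Its −log10 q was below the 179.1 and 135.6 of the Ier5 and Ier5l peaks that overlapped one of replicate 2.

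Egr2, also called Krox20, which patterns the hindbrain and drives myelination by Schwann cells, had 1 peak, in replicate 1. The gene lies on the plus strand of chromosome 10 from 67534469 to 67542188. The peak ran from 67539634 to 67540793, 1160 bp wide, and was enriched 6.18-fold (−log10 q 32.1). Its summit lay 1657 bp before the end of the gene body, and the peak covered 15.0% of the gene body, the lowest share among the 6 genes with a peak. The lncRNA gene Gm32255 overlaps Egr2 at its lower end and had no peak.

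Egr1, the best known growth factor-induced member of the family, had 3 peaks in replicate 1 and none in replicate 2. It lies on chromosome 18 from 34861207 to 34864956. The first peak, from 34861115 to 34861710, began 92 bp below the lower coordinate of the gene body and was enriched 3.18-fold (−log10 q 79.1). The second, from 34862242 to 34863151, was enriched 2.34-fold (−log10 q 59.2). The third, from 34863224 to 34864153, was enriched 2.38-fold (−log10 q 62.6). Only 72 bp separated the second and the third. All 3 had a fold enrichment under the list's median of 5.39 and a −log10 q above its median of 28.9, and together they covered 62.5% of the gene body.

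Ier2, also called Pip92, a growth factor-inducible gene on chromosome 8 from 84661331 to 84662852, had the weakest peaks of the 8 genes. Both were in replicate 1. The first, from 84661634 to 84661986, was enriched 1.41-fold (−log10 q 9.48), and the second, from 84662556 to 84663010, 1.51-fold (−log10 q 14.6). By fold enrichment these peaks ranked 22459 and 22374 of 22531, near the bottom of the list, whose lowest value was 1.22. The second peak reached 158 bp beyond the higher coordinate of the gene body. Peaks with a fold enrichment under 2 made up 4.50% of the list, and 15.9% of them overlapped a replicate 2 peak.

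Fold enrichment and −log10 q ordered the peaks differently. Among the 12 peaks of replicate 1, fold enrichment ran from 1.41 (Ier2) to 15.7 (Egr4) with a median of 3.79, and 7 of the 12 were under the list's median. For −log10 q the range was 9.48 (Ier2) to 179.1 (Ier5) with a median of 60.7, and 9 of the 12 were above the list's median. At a given fold enrichment, MACS2 returns a higher −log10 q where more reads cover the peak. Each peak was therefore set beside the peaks of its list whose fold enrichment lay within 10% of its own, and 11 of the 12 had a −log10 q above the median of those. For Ier5 it exceeded 98.6% of 2707 such peaks, for the middle peak of Ier5l 99.2% of 2435, and for the 3 peaks of Egr1 between 90.3% and 96.2%. For Egr4 it exceeded 50.5% and 34.7%, and for Egr2 64.0%. The peaks of Egr1 and the strongest of Ier5 and Ier5l thus sat along the upper edge of the list, and those of Egr4 in its middle or lower part. Over all peaks of replicate 1 Spearman's rho between both values was 0.31 (n = 22531 peaks of 1 library, which share its depth and input).

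**Figure D2:**
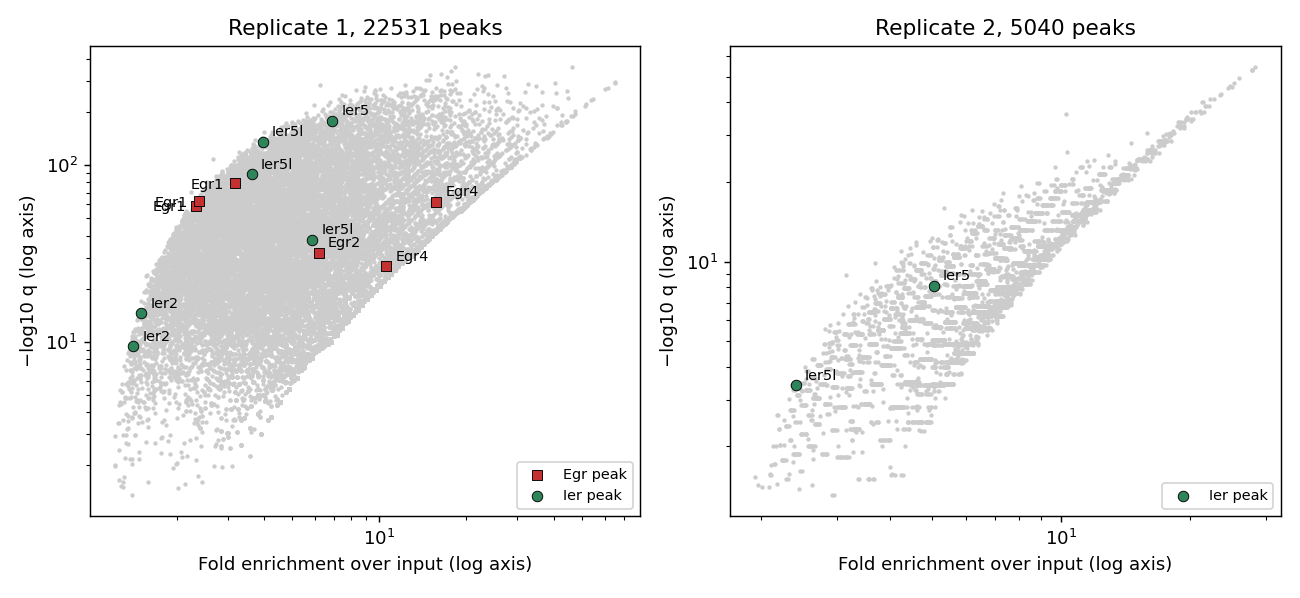
Fold enrichment over input (log axis) and −log10 q (log axis) of every peak, grey, with the peaks of Egr genes as red squares and of Ier genes as green circles; left, replicate 1, and right, replicate 2. In replicate 1, Ier5 stands highest at a −log10 q of 179.1, Egr4 furthest right at a fold enrichment of 15.7 and Ier2 furthest left at 1.41.

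Of the 12 replicate 1 peaks, 2 shared bases with a replicate 2 peak (16.7%, against 19.1% of the whole list). These were the 2 with the highest −log10 q, in the first decile of the list, where 61.7% of the peaks overlapped one of replicate 2. The remaining 10 had lower values. The first Egr1 peak and the Ier5l peak at the transcript start were in the second decile, where 40.7% overlapped. The other peaks of Egr1 and the larger one of Egr4 were in the third, with 28.2%, and those of Ier2 were in the eighth decile and the ninth, with 4.75% and 2.35%. A missing counterpart in replicate 2 was thus the more frequent outcome in every decile of the list but the first. The 2 overlaps took in 24.8% of the replicate 1 peak at Ier5 and 40.9% of that at Ier5l, and 100% of the replicate 2 peak at both genes. Among the 3414 protein-coding genes with an overlapping pair, ranked by their highest fold enrichment in replicate 1, Ier5 was at 1919, between Thtpa and Gata6, and Ier5l at 2175, between Fam214b and Erfe. Both were thus in the lower part of that order. The value ranked for Ier5l, 5.88, was that of its peak beyond the transcript end. Its overlapping peak was enriched 3.96-fold.

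Peaks covered much of the gene body at most of these genes. In replicate 1 the covered share was 86.8% at Ier5l, 65.5% at Egr4, 62.5% at Egr1, 59.1% at Ier5, 42.7% at Ier2 and 15.0% at Egr2. The median over these 6 genes was 60.8%, against 22.3% over the 1612 protein-coding genes of the same range of lengths with a peak in replicate 1. Coverage over 50% was reached by 4 of the 6 genes, against 16.6% of those 1612. Also, 4 of the 6 had 2 or more peaks, against 43.7% of the 1612, and 2 had 3 peaks, against 14.0% with 3 or more. Lengths were not matched gene by gene within this range. Egr2 was 7720 bp long, and the other genes with a peak were 1522 bp (Ier2) to 3750 bp (Egr1) long. How much of the difference goes with length was not tested. The gene body includes introns, and exon positions were not used here. The peaks were also wide. Of the 12, 10 were wider than the list's median of 445 bp, with a median of 758.5 bp and a range of 349 to 1989 bp. In replicate 2 the single peaks, 493 bp wide at Ier5 and 321 bp at Ier5l, covered 15.1% and 20.5%.

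**Figure D3:**
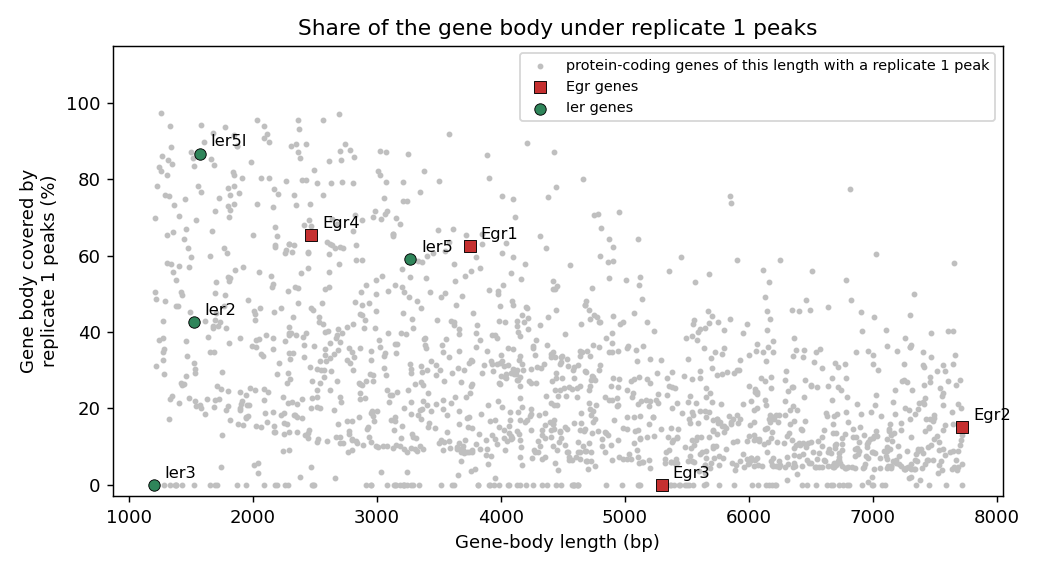
Share of the gene body covered by replicate 1 peaks, in percent, against gene-body length in bp, for Egr genes (red squares), Ier genes (green circles) and the 1612 protein-coding genes of the same length range with a replicate 1 peak (grey). Ier5l stands at 86.8%, Egr4, Egr1 and Ier5 between 59.1% and 65.5%, and Egr3 and Ier3 at 0.

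Other immediate early and pathway genes had peaks more often than the Egr and Ier genes in both counts, and the difference was not tested. They include upstream factors, EGR corepressors and RNA decay factors, so not all are immediate early genes. Of 33 such genes in 5 lists, 30 had a peak in replicate 1 (90.9%, against 41.3% of all protein-coding genes), and 17 had one in both (51.5%, against 16.1%), with an overlapping pair at all 17. These genes were longer, with a median of 11430 bp, against 2869.5 bp for the Egr and Ier genes. Of the 13 within the length range of the Egr and Ier genes, a count added after seeing the data, 12 had a peak in replicate 1 (against 33.3% of all protein-coding genes in that range) and 7 had one in both (against 13.8%). Of the 17 genes with a peak in both replicates, Dusp4, Nr4a1, Btg2 and Zfp36l1 had a highest −log10 q under 5 in replicate 2, as Ier5l had. Their values were 1.77, 3.06, 3.37 and 3.43, and the rest of the 17 were above 5. A further list, the AP-1 genes of the Fos and Jun families, had a peak in replicate 1 in 7 of 7 and in both in 4. Upstream, Srf and its coactivators Mrtfa and Mrtfb were in both lists, 3 of 6, while the ternary complex factors Elk1, Elk3 and Elk4 were in replicate 1 alone. Elk4 had a −log10 q of 186.7 there, above that of Ier5, and still no peak in replicate 2. For the genes of these lists, each value is the highest of the gene's peaks in that replicate. The values of both replicates need not come from the same site. Of the EGR corepressors, Nab2 was in both lists, enriched at most 13.1-fold in the first and 3.98-fold in the second, and Nab1 was in replicate 1 alone. Among the NR4A nuclear receptors only Nr4a1 was in both, enriched 3.87-fold and 2.64-fold in replicates 1 and 2, and Nr4a3 had no peak. The highest −log10 q of Nab2 in replicate 2 was 5.72, under that list's median of 7.54. An overlapping pair was found at 1 of the 2 corepressor genes and at no Egr gene, against 15.6% of all protein-coding genes. Counts of so few genes cannot be told apart from that share.

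Genes that end the response were in both lists at 5 of 8, against 16.1% of all protein-coding genes. They were the MAP kinase phosphatases Dusp4 and Dusp5 and the AU-rich element binding proteins Zfp36, Zfp36l1 and Zfp36l2. Zfp36 had the highest fold enrichment of these in replicate 2, 11.6, and 3.00 in replicate 1. Dusp1 and Dusp6 had a −log10 q of 96.6 and 95.7 in replicate 1 but no peak in replicate 2. Of 14 other immediate early genes, 13 had a peak in replicate 1 and 7 in both (against 41.3% and 16.1% of all protein-coding genes), namely Atf3, Klf6, Btg2, Ccn1, Per1, Trib1 and Arc. Trib1, a pseudokinase that directs proteins to degradation, was enriched at most 12.1-fold in replicate 1 and 12.5-fold in replicate 2. Atf3, a stress-induced transcription factor, was enriched 12.0-fold and 9.89-fold. Both had a higher fold enrichment than Ier5 and Ier5l in each replicate.

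**Figure D4:**
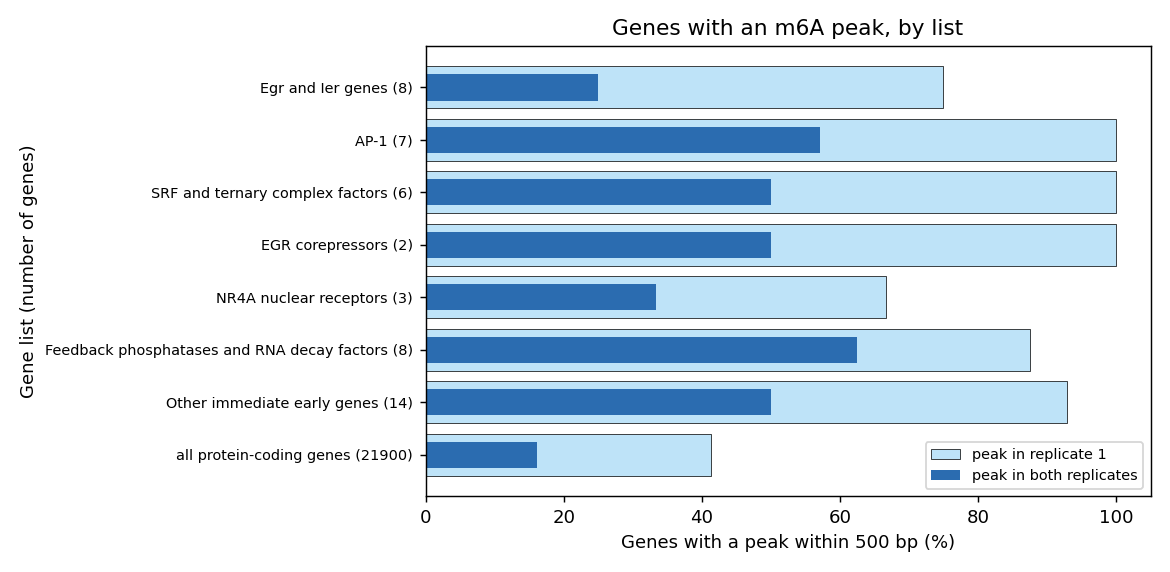
Percent of genes with a peak within 500 bp, by list, with the number of genes in brackets; light bars are genes with a peak in replicate 1 and dark bars genes with a peak in both replicates. The bars of the Egr and Ier genes stand for 6 and 2 of 8 genes, and those of all protein-coding genes reach 41.3% and 16.1%.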

How the data were processed

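m6A peaks of mESCs were taken as deposited. The submitters' processing notes name Bowtie, SAMtools and MACS2, without versions, and mm10. The authors called peaks for each WT immunoprecipitation against input with MACS2 at default settings, replicates not pooled. Which input was used, and how strand and duplicate reads were handled, was not given in any source used. A deposited peak carries a fold enrichment over input (a ratio at the summit) and, per the authors' MACS2 call, −log10 of a p-value and a q-value. The deposited score repeats the −log10 q as 10-fold whole numbers and was left out. Values of the lists are shown side by side, with no adjustment for depth.

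Coordinates are printed from 1. Peaks were assigned to each RefSeq gene body of GRCm38.p6 within 500 bp, and peaks sharing at least 1 bp were called overlapping. Strand and promoter sequence came from a RefSeq table of GRCm38.p6 that held 5 of the 8 genes (Egr2, Egr4, Ier3, Ier5 and Ier5l, not Egr1, Egr3 or Ier2). CArG boxes were searched once, being their own reverse complement in pattern, the TATAA motif and the motifs CGTCA and CCAAT on both strands, and the GGAC and AGAC motifs on the transcribed strand of the first 50 transcribed bases.

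All 8 genes are named with every peak, as are annotated neighbours of those peaks, genes of the other lists except AP-1 with an overlapping pair, and the genes next in rank to Ier5 and Ier5l. Elk1, Elk3, Elk4, Nab1, Nr4a3, Dusp1, Dusp6 and the markers were named after their values were seen. Members and lists were chosen with earlier results of these data known. No test was made: 2 samples of 1 group allow none between groups, and genes and peaks are not replicates. Peak assignment was tested on simulated data. Alternatives were the distance, thresholds, the length of the replicate 1 list, the summit, the nearest gene, stricter overlaps and each replicate alone. Motif counts at summits were not made, as no genome was used. The software was Python 3.11.15 with matplotlib 3.10.9, scipy 1.17.1, pandas 2.3.3 and numpy 2.4.6.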

Additional observations from a re-analysis of the deposited data

How the results depend on the processing

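At distances of 0 and 2000 bp, with the summit in place of the whole peak and with the nearest gene only, 2 genes had a peak in both replicates and 2 had an overlapping pair, with 11 or 12 peaks in replicate 1 and 2 in replicate 2. At a −log10 q of at least 5, 1 gene, Ier5, was left in both replicates and with an overlapping pair, and 1 peak in replicate 2. At a fold enrichment of at least 4 these were again 1, 1 and 1, with Ier5 left, and replicate 1 kept 5 peaks. With the first list shortened to the 5040 peaks that had the highest −log10 q, 4 member peaks were left there, those of Ier5, 2 of Ier5l and 1 of Egr1, and both counts of genes stayed at 2. No overlapping pair (0 genes) was left when 50% of both peaks had to overlap, since the replicate 1 peaks were much wider, or at a −log10 q of at least 10, an alternative chosen after seeing the data; at 3 there were 2. Summits within 100 bp gave 2. Without 1 replicate, the genes with a peak numbered from 2 to 6. The share of all protein-coding genes in both lists was 39.1% among those with a peak in replicate 1. The median covered share, 22.3% in the length range, was 3.76% over all protein-coding genes with a replicate 1 peak, also chosen after seeing the data.

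No paired analysis was possible because only WT immunoprecipitations were analysed and no groups were compared. Motif counts at summits and their windows were not run. Depth is unknown, so what it limits was not measured.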
